A study of Homo sapiens with 68 samples.

Results

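RBFOX2 peaks without gel purification were compared with those of 3 hnRNP proteins. The members are the 4 libraries titled RBFOX2_50k_noPAGE and RBFOX2_50k_noPAGE_RecJ, out of 68 libraries in the series, and they were set against the 12 libraries of the same 2 groups of hnRNPA1, hnRNPc and hnRNPI. All 16 were made by TLC-CLIP, which crosslinks proteins to RNA in living cells with ultraviolet (UV) light, precipitates 1 protein with an antibody and sequences the RNA that comes with it. The cells were HEK293T, an embryonic kidney line, irradiated at 254 nm with 0.3 J/cm2, and each library used 50000 cells and 0.005 U of RNase. RBFOX2 was precipitated with an antibody labelled RBM9, an older name of the protein. noPAGE means that the protein-RNA complexes were not cut from a gel (polyacrylamide gel electrophoresis), and RecJ is an exonuclease digestion. Each protein has 2 libraries per group, and nothing in the labels says whether they came from separate cultures. The p-values therefore measure the spread between these libraries, which may be technical. Libraries without UV (noUV_noPAGE, 2 per protein) gave the background of each protein. Their sample numbers form a separate run, and the labels do not say whether they were prepared together with the others. UV and a possible batch therefore cannot be told apart.

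RBFOX2 belongs to a small family of RNA-binding proteins that recognise the sequence GCAUG, mostly in introns, and switch nearby exons in or out of the mRNA. hnRNPA1 is an abundant nuclear protein that often represses exons. hnRNPc packages nascent RNA and binds runs of U, and hnRNPI, better known as the polypyrimidine tract binding protein, binds pyrimidine-rich intron sequence. The lists give intervals and Ensembl gene ids, and no genome of their build (hg19) was used, so neither the GCAUG content of the peaks nor gene symbols are reported. Genes are given below by the hg19 interval that their listed peaks cover.

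The 4 RBFOX2 lists held 157375 to 161434 peaks in 13296 to 13392 gene ids. The hnRNP lists were longer, with 450313 to 523402 peaks for hnRNPA1, 379280 to 487908 for hnRNPc and 335107 to 353415 for hnRNPI. The number of reads behind a list is unknown, and a shorter list can come from lower depth. Genes were therefore compared by their share of the library's peaks. Without UV, RBFOX2 listed 52842 and 61242 peaks. Of the RBFOX2 peaks, 5.52% to 5.74% were listed under more than 1 gene id, against 6.07% to 7.13% in the hnRNP lists.

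RBFOX2 peaks were spread over shorter genes than those of any of the 3 hnRNP proteins. The peak span of a gene runs from the first to the last peak listed for it in any of the 16 libraries, and is not an annotated gene length. In the RBFOX2 libraries, 34.6% ± 0.193 (SD, n = 4) of the peaks lay in genes with a span over 100000 nt. The share was 53.8% ± 0.485 for hnRNPA1, 49.8% ± 0.584 for hnRNPc and 59.6% ± 0.0997 for hnRNPI (SD, n = 4 each). The mean difference from the 12 hnRNP libraries was −19.8 percentage points, with a two-sided exact permutation p of 0.000549, the smallest that 1820 assignments of the 16 libraries allow. Adjusted over 11 measures of this kind by the Benjamini-Hochberg method, this permutation p was 0.000604. Against each hnRNP protein alone the exact permutation p was 0.0286, again the smallest possible, with 70 assignments.

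At the other end of the size range, genes with a span under 10000 nt held 12.3% ± 0.105 (SD, n = 4) of the RBFOX2 peaks. They held 3.63% of the hnRNPA1 peaks, 3.34% of the hnRNPc peaks and 2.88% of the hnRNPI peaks. Genes of 10000 to 30000 nt held 20.3% of the RBFOX2 peaks and 8.53% to 11.6% of the hnRNP peaks. In the class from 30000 to 100000 nt the 4 proteins were close, with 32.9% for RBFOX2 and 29.0% to 35.3% for the others. Without UV, RBFOX2 again had the smallest share in long genes, while the order of the hnRNP proteins differed: 22.6% of the RBFOX2 peaks lay in spans over 100000 nt, against 45.1% for hnRNPA1, 43.4% for hnRNPc and 41.9% for hnRNPI (means, n = 2). The crosslinked RBFOX2 libraries thus held a larger share in long genes than RBFOX2 without UV did.

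The genes that RBFOX2 peaks fell in also had more neighbours. The median RBFOX2 peak lay in a gene with 12 other listed gene ids within 500000 nt, in all 4 libraries. For hnRNPA1 the median was 8, for hnRNPc 9 and for hnRNPI 7, also without spread between libraries. The difference from the 12 libraries had an exact permutation p of 0.000549 (adjusted 0.000604). Without UV the RBFOX2 median was 15, and the hnRNP medians were 9, 9.5 and 11. The 100 genes with most peaks held 7.41% ± 0.0439 (SD, n = 4) of the RBFOX2 peaks and 9.17% of the hnRNP peaks on average, with the same exact permutation p of 0.000549 (adjusted 0.000604). Without UV the share was 8.58% for RBFOX2, above 7.26% for hnRNPA1 and below 8.96% for hnRNPc and 13.4% for hnRNPI.

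**Figure D1:**
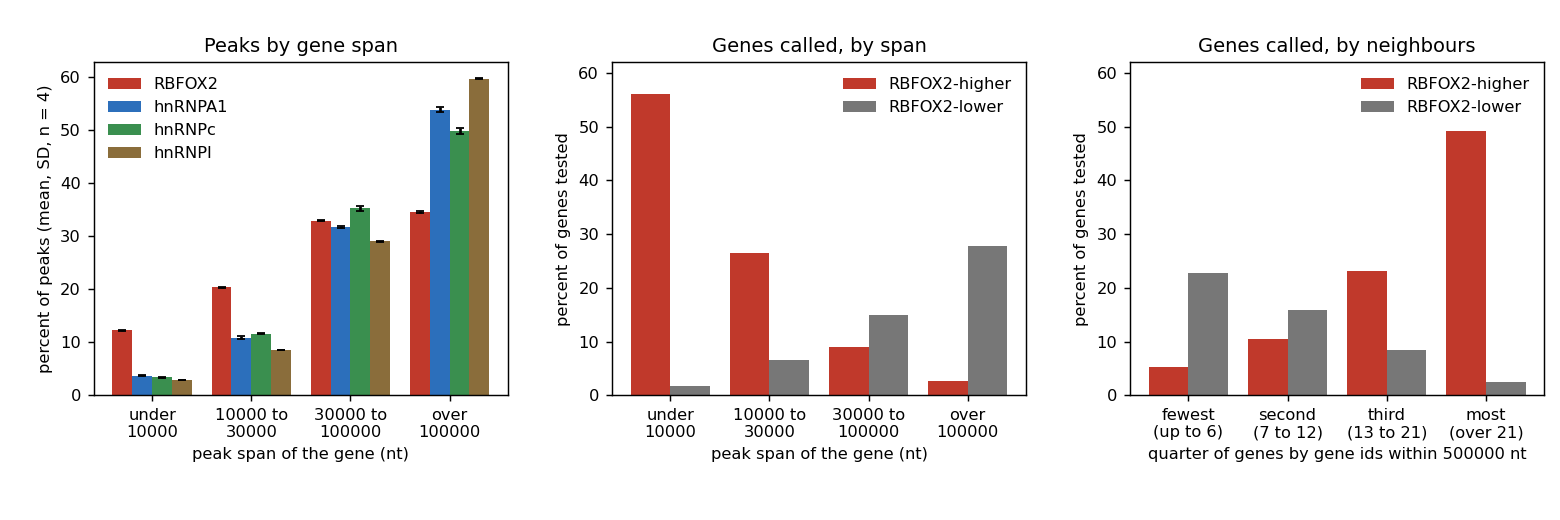
Left, percent of each protein's peaks (mean of 4 libraries, bars SD) by peak span of the gene in nt. Middle and right, percent of tested genes called higher (red) or lower (grey) in RBFOX2 than in each of the 3 hnRNP proteins, by span and by the number of gene ids within 500000 nt. RBFOX2-higher genes make up 56.1% of genes under 10000 nt and 2.63% of those over 100000 nt, and RBFOX2-lower genes run the other way.

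Along genes spanning at least 10000 nt, the RBFOX2 profile had 2 high ends and a low middle, whereas the hnRNP profiles declined from the 5′ end to the ninth of 10 equal parts. In the last part hnRNPA1 rose from 7.94% to 8.90% and hnRNPc from 7.13% to 8.99%, and hnRNPI fell further. The last 10% of the span, at the 3′ end, held 14.1% ± 0.0132 (SD, n = 4) of the RBFOX2 peaks. It held 8.90% ± 0.0613 for hnRNPA1, 8.99% ± 0.0939 for hnRNPc and 7.30% ± 0.0269 for hnRNPI. From the second to the sixth of these 10 parts, each hnRNP protein placed a larger share of its peaks than RBFOX2. The median relative position, from 0 at the 5′ end to 1 at the 3′ end, was 0.506 ± 0.00131 (SD, n = 4) for RBFOX2, against 0.424 for hnRNPA1, 0.402 for hnRNPc and 0.418 for hnRNPI. Both measures had an exact permutation p of 0.000549 (adjusted 0.000604) against the 12 hnRNP libraries. Without UV the median position was 0.608 for RBFOX2 and 0.417 to 0.499 for the hnRNP proteins.

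The first 10% of the span was less clear. It held 15.6% ± 0.307 (SD, n = 4) of the RBFOX2 peaks and 13.2% to 14.4% of the hnRNP peaks, a difference of 1.64 points with an exact permutation p of 0.000549 (adjusted 0.000604). In the RecJ libraries alone the difference was 1.35 points with an exact permutation p of 0.0714. It turned to −0.656 points when only peaks with a deposited p below 1e-05 were kept, and to −1.46 points in equal lists of 100000 peaks, with exact permutation p of 0.368 and 0.0819.

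**Figure D2:**
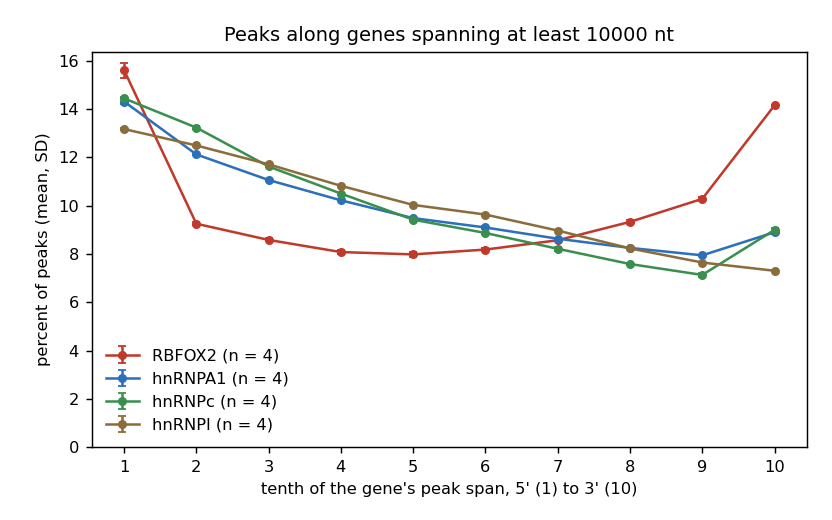
Percent of peaks in 10 equal parts of the gene's peak span, from the 5′ end (1) to the 3′ end (10), in genes spanning at least 10000 nt. Points are means of 4 libraries and bars the SD. RBFOX2 holds 14.1% in the last 10%, above the 7.30% to 8.99% of the hnRNP proteins, and lies below them in the middle.

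Close to the ends the difference was sharper. Within 1000 nt of the 5′ end of the span, the 4 RBFOX2 libraries placed 10.0% ± 0.427 (SD, n = 4) of their peaks, and the hnRNP proteins 2.94% (hnRNPA1), 2.25% (hnRNPc) and 2.60% (hnRNPI). Within 1000 nt of the 3′ end, RBFOX2 placed 7.35% ± 0.0340, and the hnRNP proteins 3.22%, 3.65% and 2.54% in the same order. The 4 RBFOX2 libraries lay above all 12 others on both measures, with an exact permutation p of 0.000549 each (adjusted 0.000604). In short genes most positions are near an end, so the measure was repeated over spans of at least 10000 nt. There RBFOX2 placed 6.21% near the 5′ end against 1.69%, and 4.15% near the 3′ end against 2.09%. Giving each gene equal weight left 8.07% against 3.41% at the 5′ end and 5.57% against 4.21% at the 3′ end. RBFOX2 peaks help to set the spans, and a peak that sets an end lies at distance 0 by construction. With spans from the 12 hnRNP libraries alone, the shares were 11.2% against 3.15% (5′) and 8.17% against 3.27% (3′). There, RBFOX2 peaks beyond the span counted as near its end. How much the setting of ends adds to the excess was not tested.

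The 5′ excess was largest in the outermost stretch, which includes the peaks that set the end of the span. In spans of at least 10000 nt, the first 250 nt held 2.99% ± 0.248 (SD, n = 4) of the RBFOX2 peaks, and 0.613% for hnRNPA1, 0.367% for hnRNPc and 0.593% for hnRNPI. From 2000 to 5000 nt the RBFOX2 value, 5.41%, lay between 4.24% for hnRNPI and 5.86% for hnRNPc. At the 3′ side the RBFOX2 excess reached further in: 8.90% of its peaks lay 2000 to 5000 nt from the 3′ end, against 4.13% for hnRNPA1, 4.13% for hnRNPc and 3.14% for hnRNPI.

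The libraries without UV showed both end excesses too. Without UV, 12.8% of the RBFOX2 peaks lay within 1000 nt of the 5′ end and 11.4% within 1000 nt of the 3′ end (means, n = 2). The corresponding values were 6.03% and 6.58% for hnRNPA1, 4.10% and 6.23% for hnRNPc, and 8.08% and 9.44% for hnRNPI. For each of the 4 proteins the end shares were higher without UV than with it. The part of the uncrosslinked background in the RBFOX2 profile was not tested.

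**Figure D3:**
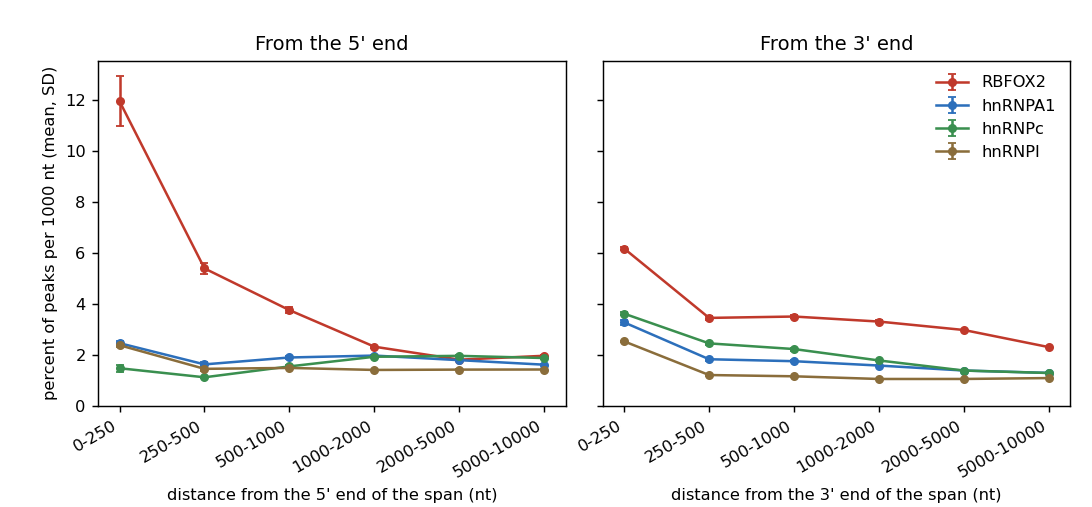
Percent of peaks per 1000 nt, by distance in nt from the 5′ end (left) and the 3′ end (right) of the gene's peak span, in genes spanning at least 10000 nt. Points are means of 4 libraries and bars the SD. RBFOX2 reaches 11.9% per 1000 nt in the first 250 nt, where hnRNPA1 has 2.45%, and stays above the others on the 3′ side. The stretch next to each end includes the peaks that set that end.

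Of 19938 gene ids with a peak in any of the 16 libraries, 12377 had at least 2 peaks on average and were tested with limma on log2 shares. A gene was called when the Benjamini-Hochberg adjusted p was below 0.05 and the log2 difference was at least 1. Against the mean of the 3 hnRNP proteins, 3991 genes were higher in RBFOX2 (32.2% of those tested) and 2796 were lower (22.6%). Against each single protein, 3619 genes were higher and 2873 lower for hnRNPA1 (29.2% and 23.2%), 3613 and 2751 for hnRNPc (29.2% and 22.2%), and 4575 and 3078 for hnRNPI (37% and 24.9%). These comparisons share the RBFOX2 libraries. The stricter call, against each of the 3 proteins at once, gave 2619 RBFOX2-higher genes (21.2%) and 1583 RBFOX2-lower genes (12.8%), and these 2 sets are described below.

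How the calls split by direction depended on the scaling. RBFOX2-higher genes were 62.3% of the genes called against each protein. The median log2 difference of all tested genes was 0.10, and −0.39 after each library was centred on its median gene, which is a shift over 0.1. With that centring, RBFOX2-higher genes were 38.2% of the calls, and with at least 10 peaks on average they were 44.1%. Centring moves all genes of a library by 1 constant, and it left 1760 genes higher and 2843 lower. In equal lists of 100000 peaks, 1375 of the 2619 higher genes and 362 of the 1583 lower genes were called again, and at a deposited p below 1e-05, 1860 and 819.

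The RBFOX2-higher genes were short and had many neighbours. Their median span was 10384 nt and their median number of gene ids within 500000 nt was 24. For the RBFOX2-lower genes these medians were 85680 nt and 7, and for all tested genes 33936 nt and 12. Among 2251 tested genes with a span under 10000 nt, 1263 were higher (56.1%) and 38 were lower (1.69%). Among 2513 with a span over 100000 nt, 66 were higher (2.63%) and 700 were lower (27.9%). By neighbours, the share of higher genes ran from 5.22% where at most 6 ids were near to 49.3% where more than 21 were. The span is set by the peaks themselves, and a gene with few peaks has a short one. Among genes with at least 10 peaks on average the same order was seen, with a median span of 21864 nt for the 957 higher genes and 110292 nt for the 1212 lower genes.

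These gene preferences were also present without UV. In 1441 of the 2619 RBFOX2-higher genes (55.0%), both RBFOX2 libraries without UV had a larger share than all 6 hnRNP libraries without UV. Over all tested genes this held for 2339 (18.9%). Of the 1583 RBFOX2-lower genes, 412 (26.0%) were below all 6 without UV, against 10.5% of all tested genes. The median log2 difference without UV was 1.76 in the higher genes, −1.31 in the lower genes and 0.07 over all tested genes. In 468 of the RBFOX2-higher genes (17.9%), all 4 crosslinked RBFOX2 libraries had a larger share than both RBFOX2 libraries without UV. Over all tested genes, 4256 (34.4%) met this condition, and the difference between these shares was not tested. In 1216 RBFOX2-higher genes (46.4%), the share was smaller with UV than without it in all libraries. Over all tested genes this was so in 2772 (22.4%), and this difference was not tested either.

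By log2 difference, 10 genes led the RBFOX2-higher set, among 688 (5.56% of those tested) in which the 4 RBFOX2 libraries lay above all 12 others and listed at least 20 peaks on average. The first with 0.5 added peaks was ENSG00000107331.12, at chr9:139902000-139918158 on the minus strand. RBFOX2 listed 25 and 32 peaks there without RecJ and 20 and 33 with it. The 8 hnRNPA1 and hnRNPc libraries listed 0 peaks, and the hnRNPI libraries 3, 3, 2 and 2. That all 4 RBFOX2 libraries lay above the others follows from the selection. The fitted log2 difference was 6.32 ± 0.236 (SE; limma with Benjamini-Hochberg adjusted p 2.75e-14). Where a protein lists 0 peaks the fitted value rests on the added 0.5 peaks: with 2 added peaks it was 4.87, below the 5.01 of the next gene, and with the added 0.5 peaks scaled to the length of each list it was 6.06, below 6.15. Without UV, RBFOX2 listed 36 and 39 peaks in this gene, hnRNPA1 0 and 1, hnRNPc 0 and 0, and hnRNPI 4 and 16.

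The second was ENSG00000184916.4, at chr14:105609856-105634300 on the minus strand. RBFOX2 listed 41, 31, 46 and 38 peaks, hnRNPA1 6, 8, 3 and 4, hnRNPc 1, 2, 0 and 0, and hnRNPI 0 in each library. The fitted log2 difference was 6.21 ± 0.309 (SE; limma with Benjamini-Hochberg adjusted p 9.01e-13). The RBFOX2 libraries without UV listed 38 and 36 peaks in it, about as many as the crosslinked ones although their lists were shorter. The other 8 genes of this group had log2 differences of 5.66 to 6.21 and spans of 2922 to 14110 nt. They had 28 to 51 gene ids within 500000 nt, above the median of 24 of the RBFOX2-higher genes. One of them, at chr1:1228580-1242689 on the minus strand, listed 32, 36, 32 and 32 peaks with RBFOX2 and 10, 9, 7 and 10 with hnRNPA1. The hnRNPc libraries listed 0, 1, 0 and 0 peaks there, and the hnRNPI libraries 0 in all 4.

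Likewise, 10 genes led the RBFOX2-lower set, among 949 (7.67% of those tested) in which the 4 RBFOX2 libraries lay below all 12 and the hnRNP libraries listed at least 20 peaks on average. ENSG00000048052.16, at chr7:18129720-19036678 on the plus strand, had 0 RBFOX2 peaks in all 4 libraries. hnRNPA1 listed 44, 55, 38 and 37 peaks, hnRNPc 16, 30, 18 and 31, and hnRNPI 72, 55, 55 and 59. That no RBFOX2 library overlapped with any hnRNP library follows from the selection above. The fitted log2 difference was −4.90 ± 0.155 (SE; limma with Benjamini-Hochberg adjusted p 3.58e-15). RBFOX2 is listed at 0 there, so the fitted value rests on the added 0.5 peaks and is no measured fold: with 2 added peaks it was −2.96, and with the scaled 0.5 peaks −6.08. ENSG00000138594.8, at chr15:52122489-52238602 on the plus strand, was likewise at 0 in RBFOX2, with 31 to 39 peaks in hnRNPA1, 29 to 32 in hnRNPc and 26 to 31 in hnRNPI. Its fitted log2 difference was −4.59 ± 0.139 (SE; limma with Benjamini-Hochberg adjusted p 2.1e-15), and −2.66 or −5.76 with these other added numbers.

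A gene at chr3:89156922-89530806 on the plus strand was the best covered of these 10. RBFOX2 listed 1, 4, 1 and 2 peaks in it, hnRNPA1 110, 123, 78 and 105, hnRNPc 74, 60, 51 and 85, and hnRNPI 101, 100, 98 and 100. Its log2 difference was −3.90 ± 0.191 (SE; limma with Benjamini-Hochberg adjusted p 7.84e-13). The other 7 of the 10 lay between −4.39 and −3.88, with spans of 52272 to 388910 nt and at most 1 RBFOX2 peak in any library. Of all 1583 RBFOX2-lower genes, 138 had 0 peaks in the 4 RBFOX2 libraries, against 383 of all 12377 tested genes. With at least 10 peaks on average, 12 of the 1212 lower genes had 0, and 12 of all 7676 tested. Without UV, RBFOX2 listed 0 peaks in both libraries in 8 of the 10 genes. The exceptions were the chr15 gene named by its id, with 0 and 2, and the chr3 gene, with 0 and 1. These 2 lists were short, with 8844 and 9606 gene ids, so a gene can be missing from them for that alone. The share of all tested genes at 0 in both was not computed.

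Where all proteins had many peaks, the largest differences were smaller. Separation by library was looked at only in the 5 genes named each way, where it held. Of 1587 genes with at least 20 peaks on average in every protein, 116 were RBFOX2-higher and 77 were RBFOX2-lower, or 7.31% and 4.85% of these genes. The 5 with the largest positive difference among the 116 lay at chr12:133067763-133160843, chr14:105782023-105863678, chr12:49412995-49453486, chr4:844909-925879 and chr21:46932502-46961829. In the first, RBFOX2 listed 87, 86, 70 and 79 peaks, or 5.03 ± 0.520 per 10000 listed peaks (SD, n = 4). hnRNPA1 had 1.03 ± 0.0828, hnRNPc 0.664 ± 0.0230 and hnRNPI 0.707 ± 0.0767 per 10000. Its log2 difference was 2.66 ± 0.0813 (SE; limma with Benjamini-Hochberg adjusted p 2.43e-15), and over the 5 genes the differences were 2.42 to 2.66. Without UV the first gene had 69 and 72 RBFOX2 peaks, so its share was larger without UV than with it.

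The 5 RBFOX2-lower genes with the most negative difference among the 77 lay at chr12:1100834-1604831, chr6:20534900-21232523, chr7:110311855-111202332, chrX:95939934-96859239 and chr5:58265274-59768854. In the first, RBFOX2 listed 21, 17, 24 and 18 peaks and hnRNPA1 270, 339, 242 and 279. The hnRNPc libraries listed 259, 314, 224 and 304 peaks there, and the hnRNPI libraries 226, 244, 239 and 252. The log2 difference was −2.31 ± 0.0756 (SE; limma with Benjamini-Hochberg adjusted p 5.49e-15). The 5 genes spanned 503998 to 1503581 nt, with log2 differences of −2.31 to −1.88.

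**Figure D4:**
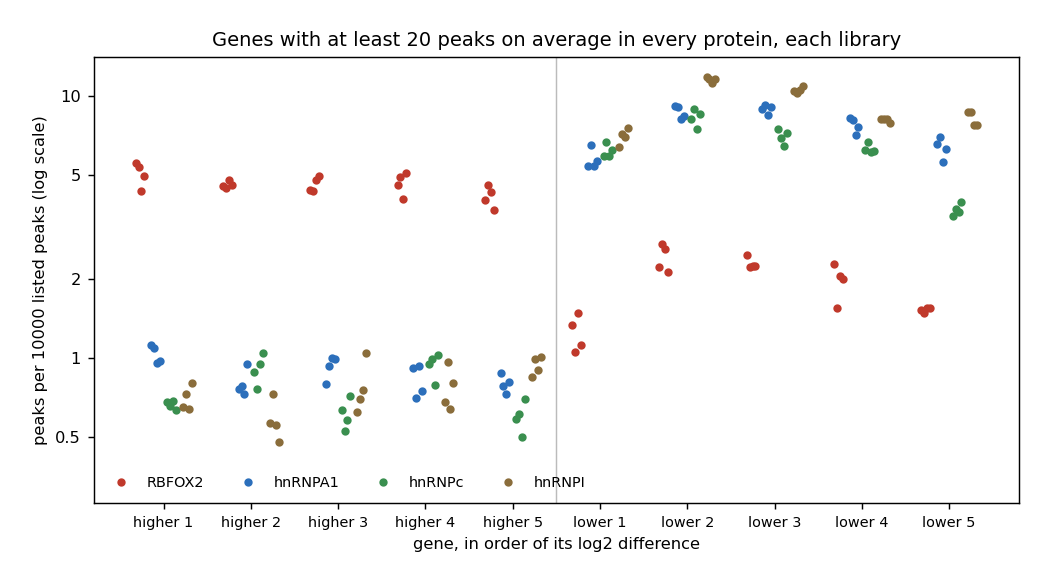
Peaks per 10000 listed peaks (log axis) in each library, for the 5 RBFOX2-higher and the 5 RBFOX2-lower genes with at least 20 peaks on average in every protein and the largest log2 difference, in the order given in the text. Each point is 1 library, 4 per protein. The genes were picked for the largest differences, and in none do the red RBFOX2 points overlap those of a hnRNP protein. Over all tested genes, the 4 RBFOX2 libraries lay above all 12 others in 27.9% and below all 12 in 20.4%.

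Some RBFOX2-higher genes also exceeded the share in the RBFOX2 libraries without UV in all 4 libraries. This was so for 26 of the 116 well covered ones (22.4%), against 57.5% of the 1587 well covered genes. They were singled out after their values were seen. The one with the largest difference lay at chr19:3632395-3700008 on the minus strand, with 56, 63, 63 and 63 RBFOX2 peaks. That is 3.83 ± 0.179 per 10000 (SD, n = 4), above 0.583 for hnRNPA1, 0.857 for hnRNPc and 0.945 for hnRNPI. RBFOX2 without UV had 2.46 and 1.96 per 10000. The log2 difference from the hnRNP mean was 2.30 ± 0.114 (SE; limma with Benjamini-Hochberg adjusted p 8.76e-13). A gene at chr5:1461579-1523511 on the minus strand listed 47, 52, 53 and 55 RBFOX2 peaks, or 3.23 ± 0.186 per 10000 (SD, n = 4), with 1.14 and 2.12 per 10000 without UV. Its log2 difference was 2.11 ± 0.0927 (SE; limma with Benjamini-Hochberg adjusted p 1.95e-13).

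The 5 genes with the largest share of RBFOX2 peaks were long genes that all 4 proteins covered. The first, at chr4:20254926-20622099 on the plus strand, held 250, 271, 248 and 259 RBFOX2 peaks, or 16.1 ± 0.576 per 10000 (SD, n = 4). The hnRNP proteins had 10.7 to 11.1 per 10000, and the log2 difference was 0.56, below the size needed for a call. It turned to −0.20 with only peaks of deposited p below 1e-05. The genes at chr7:69063932-70257822 and chr13:93879127-95058736 had log2 differences of −0.65 and −0.59, below the size of a call. With median centring these were −1.13 and −1.07, with deposited p below 1e-05 −1.47 and −1.68, and in equal lists −1.17 and −1.89, past that size. The gene at chr18:36787263-37380258 had −0.17, which was −1.64 with deposited p below 1e-05, −1.44 in equal lists and 0.015 with peaks within 30 nt joined. The fifth, at chr3:183853623-184167420 on the plus strand, was the exception: RBFOX2 listed 217, 218, 192 and 217 peaks, more than any hnRNP library although the hnRNP lists were longer. hnRNPA1 listed 158, 153, 142 and 156, hnRNPc 100, 110, 87 and 103, and hnRNPI 76, 75, 78 and 75. The log2 difference was 2.40 ± 0.0498 (SE; limma with Benjamini-Hochberg adjusted p 2.25e-17). Of its peaks, 28.7% were also listed under another gene id, and RBFOX2 without UV listed 127 and 144 peaks there.

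Position also differed within the same genes. In 2957 genes with at least 10 peaks in every library and a span of at least 10000 nt, the mean relative position of the peaks was fitted with limma, and a gene was called at an adjusted p below 0.05 and a difference of at least 0.05. RBFOX2 peaks lay more 3′ than the mean of the 3 hnRNP proteins in 1206 genes (40.8%) and more 5′ in 768 (26%). Against each of the 3 proteins at once, 776 genes were shifted 3′ (26.2%) and 391 were shifted 5′ (13.2%). The median difference over all 2957 genes was 0.0212 of the span. The 3′ shift was seen most in spans of 30000 to 100000 nt, where 30.7% of 1318 genes shifted 3′ and 11.5% shifted 5′. In spans of 10000 to 30000 nt the shares were 17.6% and 17.9% of 301 genes.

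The 4 genes with the largest 3′ shift lay at chr22:40767119-40806095, chr17:4737087-4801115, chr19:55602349-55628414 and chr19:4360685-4400044. In the first, on the plus strand, the mean position of the 101 RBFOX2 peaks was 0.970 to 0.972 in the 4 libraries, at the very 3′ end. It was 0.393 to 0.429 for hnRNPA1, 0.310 to 0.362 for hnRNPc and 0.245 to 0.361 for hnRNPI. The fitted difference was 0.617 ± 0.0160 of the span (SE; limma with Benjamini-Hochberg adjusted p 1.17e-13). In the other 3 genes the difference was 0.486 to 0.493.

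The largest 5′ shift was in the gene at chrX:73040986-73072543 on the minus strand. Its 251 RBFOX2 peaks had a mean position of 0.0361 to 0.0510 in the 4 libraries. The mean position of the hnRNP peaks in this gene was further 3′, at 0.524 (hnRNPA1), 0.401 (hnRNPc) and 0.762 (hnRNPI). A mean does not show which parts of the span hold the peaks. The fitted difference was −0.516 ± 0.0114 of the span (SE; limma with Benjamini-Hochberg adjusted p 2.02e-14). The next genes lay at chrX:133903899-133931233, chr12:4382993-4414349 and chr1:155629418-155658499, with differences of −0.44, −0.43 and −0.37. In the first of these, hnRNPI peaks were also near the 5′ end, at 0.212 on average.

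**Figure D5:**
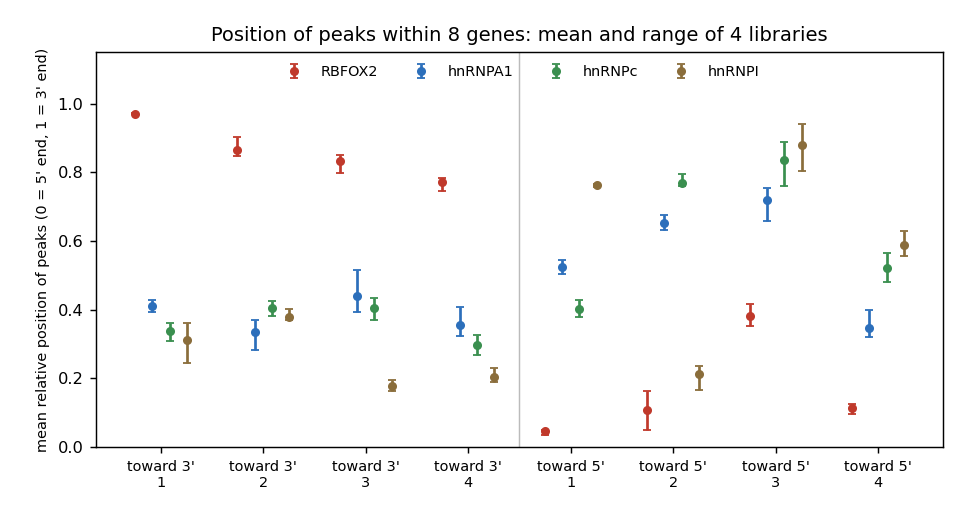
Mean relative position of the peaks within 8 genes, from 0 at the 5′ end to 1 at the 3′ end of the peak span, for the 4 genes with the largest shift of RBFOX2 peaks toward each end, in the order given in the text. Points are means of 4 libraries and bars run from the lowest to the highest library. The 8 genes had the largest shifts among those called against each protein, so that their RBFOX2 ranges overlap no hnRNP range follows largely from the selection. The share of such genes among the 2957 was not computed. At chrX:133903899-133931233 the highest RBFOX2 library, 0.1646, lay just below the lowest hnRNPI library, 0.1658.

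Very strong peaks were a larger part of the RBFOX2 lists. The p-value that the authors' caller gave a peak was listed as 0 for 1.08% ± 0.0346 (SD, n = 4) of the RBFOX2 peaks. The share was 0.0914% for hnRNPA1, 0.0721% for hnRNPc and 0.249% for hnRNPI, with an exact permutation p of 0.000549 (adjusted 0.000604) against the 12 libraries. Without UV it was 0.725% for RBFOX2, 0.600% for hnRNPA1, 0.223% for hnRNPc and 2.53% for hnRNPI, so RBFOX2 was not the highest there. Overlapping RBFOX2 peaks of this kind were joined into 630 sites, of which 448 had such a peak in all 4 libraries, in 229 gene ids. Peaks that only touched were not joined, so 1 stretch can count as several sites, as at chrM:2201-2257, chrM:2258-2263 and chrM:2264-2298. Of these 448 sites, 159 (35.5%) lay within 1000 nt of the 5′ end of the gene's span and 136 (30.4%) within 1000 nt of the 3′ end, and short spans count at both ends. In spans over 100000 nt lay 30 sites (6.70%). Over all RBFOX2 peaks, counted as peaks and not as joined sites, these 3 shares were 10.0%, 7.35% and 34.6%. The differences were not tested, and several of the sites lie in spans shorter than 1000 nt. Both RBFOX2 libraries without UV had a peak at 404 of the 448 sites (90.2%). The same share over all RBFOX2 peaks was not computed.

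Some genes held several of the 448 strong sites. A mitochondrial gene at chrM:1703-2901 held 25 sites, the chrX gene described above 15, and genes at chr11:93463682-93513742 and chr1:173833288-173836990 held 10 each. Touching intervals are counted separately in these numbers. Of the 448 sites, 177 (39.5%) had a peak in all 12 hnRNP libraries and 8 (1.79%) in none. The same shares over all RBFOX2 peaks were not computed. The sites without a hnRNP peak include chr19:49994163-49994165 and chr19:49993952-49993955, which are only 3 and 4 nt wide. The strongest of these 8, by the last number of the peak name, lay at chr1:109643124-109643169 on the plus strand. It had no peak in either RBFOX2 library without UV. That number, whose meaning the files do not give, was 4067, 4086, 2454 and 3025 there in the 4 RBFOX2 libraries. At the mitochondrial site chrM:2264-2298 it was 25627 to 36886 in RBFOX2. There it reached 118935 in hnRNPA1, 51331 in hnRNPc and 9209 in hnRNPI. At chr11:62609207-62609220 on the minus strand it was 160867 to 174697 in RBFOX2, and at most 8489, 15404 and 16822 in the same order. Both sites had peaks in both RBFOX2 libraries without UV. These differences were not tested. A site at chr3:42661246-42661462 on the plus strand, 217 nt wide, also had no hnRNP peak, but had a peak in both RBFOX2 libraries without UV.

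Mitochondrial peaks were few in all lists. They made up 0.0929% ± 0.00213 (SD, n = 4) of the RBFOX2 peaks and 0.0291% to 0.0322% of the hnRNP peaks, with an exact permutation p of 0.000549 (adjusted 0.000604). In equal lists of 100000 peaks the difference was 0.0204 points with an exact permutation p of 0.108. Without UV the RBFOX2 share was 0.277%, above its share with UV. The hnRNP shares were also larger without UV, at 0.0779% for hnRNPA1, 0.0861% for hnRNPc and 0.212% for hnRNPI (means, n = 2). The median peak width was 59 nt in all 4 RBFOX2 libraries and 62.3 nt over the hnRNP libraries, with an exact permutation p of 0.172. RBFOX2 peaks were wider than those of hnRNPc, at 57.8 nt, and narrower than those of hnRNPA1, at 61.8 nt, and hnRNPI, at 67.5 nt, each with an exact permutation p of 0.0286. Among peaks with a deposited p below 1e-05, the RBFOX2 width was 13.9 nt smaller than the hnRNP mean (exact permutation p 0.000549).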

How the data were processed

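Each library had 1 deposited peak list with the chromosome, start, end, strand, name and p-value of each peak, and the p-value is the one the authors' peak caller (CLIPper, per the file names) gave it. Lists were made separately for each library, with bcl2fastq, STAR 2.7.3a and UMI-tools 1.0.1 and genome build hg19 named in the submitters' processing notes. Other deposited numbers, such as the last number of the peak name, were used only to describe peaks. Relative positions use the peak's midpoint, and distances from an end use the peak edge nearer to it.

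Peaks were counted per gene id from the name. The value log2((peaks + 0.5) / (peaks of the library + 1) × 1000000) was fitted with limma 3.58.1 in R 4.3.3 (lmFit, eBayes with trend) over genes with at least 2 peaks on average. Each p was adjusted by the Benjamini-Hochberg method over all 12377 genes. The fixed 0.5 weighs more in the shorter RBFOX2 lists. Position measures were tested with exact two-sided permutation tests, and adjusted over 11 measures, or over 33 comparisons with single proteins. The fit was also run on simulated peak numbers with full counting noise, which is more than these libraries showed. The outcome of that run is not used as support here. Depth is unknown, so no counting intervals are given.

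The groups, members and lists were chosen with earlier results of these data known. Named genes are the 10 largest differences each way among genes separate by library with at least 20 peaks on average, and the 5 largest shares. The well covered genes, the within-gene position fit, the 5′ end measure, the neighbour count, the share of p listed as 0, the RecJ interaction and the comparisons with libraries without UV were added after the data were seen. The gene lists, cell line markers and motif share of the plan could not be used: 0 gene ids matched the gene table at hand (GRCh38), and no genome of the build was used. Peak numbers of same-protein libraries varied by no more than counting noise (chi-square per degree of freedom 0.416 to 0.842), and at most 0.288% of their intervals were identical, so all libraries were kept.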

Additional observations from a re-analysis of the deposited data

Results flagged for a closer look

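The RBFOX2 difference from the mean of the 3 hnRNP proteins differed between libraries with and without RecJ in 60 of 12377 genes by an interaction term (limma with Benjamini-Hochberg, adjusted p below 0.05), and 45 of these had an interaction of at least 1 on the log2 scale. At an unadjusted p below 0.05 there were 1350 genes. One of the 10 leading RBFOX2-lower genes is among the 60: in the gene at chr15:40091873-40211940 on the minus strand the log2 difference was 1.75 higher with RecJ (adjusted p 0.0121), where RBFOX2 listed 0 and 0 peaks without RecJ and 1 and 1 with it.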

How the results depend on the processing

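Each result was recomputed under the alternatives named here. The scaled pseudocount, the limit to spans of at least 10000 nt and the settings of the added measures were chosen after seeing the data. The number of genes higher than each hnRNP protein, 2619, was 5406 with no filter, 957 with at least 10 peaks on average (956 shared), 1650 in equal lists of 100000 peaks (1375 shared) and 934 with a pseudocount scaled to the library and at least 10 peaks. The number lower, 1583, was 685 with a pseudocount of 2, 2843 after median centring and 939 in equal lists (362 shared). Against the mean of the 3 proteins, the 3991 higher genes became 8463 with no filter, 1575 with at least 10 peaks and 1522 with the scaled pseudocount and that filter. The 2796 lower genes became 1429 with a pseudocount of 2 and 4353 after median centring. Leaving out each library in turn gave 2554 to 2655 genes higher and 1538 to 1633 lower than each protein. The percent of called genes that were higher was 80.2% with a pseudocount of 2 and 54.7% with the scaled one. The difference in the first 10% of the span was −0.656 points at p below 1e-05, −1.46 in equal lists and 1.35 in RecJ libraries alone. The mitochondrial difference was 0.0204 points in equal lists, and the width difference was −13.9 nt at p below 1e-05 and −28.6 nt in equal lists. Among single genes, the one at chr4:20254926-20622099 turned to −0.20 at p below 1e-05 and −0.98 in equal lists, and the one at chr18:36787263-37380258 to 0.015 when peaks within 30 nt were joined, while it was −1.64 at p below 1e-05 and −1.44 in equal lists. The genes at chr7:69063932-70257822 and chr13:93879127-95058736 passed the size of a call after median centring, at p below 1e-05 and in equal lists. The cause of these changes was not tested. The other position measures kept their direction and call under every alternative run, leave-one-out included. With the replicate block, 2620 genes were higher and 1583 lower, and 2616 and 1582 of them were shared with the fit without it. The replicate numbers did not pair the libraries: over 28 pairs of groups the deviations correlated at −0.02 to 0.05.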
